A study of Caenorhabditis elegans with 12 samples.

Results

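The genes described here are 8 heat shock protein genes of the cytosol and the endoplasmic reticulum (ER) of C. elegans: hsp-16.1, hsp-16.2, hsp-16.41, hsp-16.48, hsp-70, hsp-1, hsp-3 and hsp-4. They were chosen by symbol for the compartment and class of their protein. No measured value entered that rule, but earlier results of these data were known when they were chosen. The 8 symbols stand for 10 loci among the 46920 rows of the gene table, and 9 of these loci passed the filter on low counts, among 14867 genes tested. Transcripts were counted in whole worms at the L4 stage in 4 groups of 3 libraries: the mutant lin-40(yth27) fed bacteria for cco-1 RNAi (lin-40 cco-1), the same mutant fed bacteria with the empty vector (lin-40 EV), the WT strain N2 fed cco-1 RNAi bacteria (WT cco-1) and N2 fed the empty vector (WT EV). The study's sequencing methods name the knockdown bacteria as empty vector plus cco-1 RNAi. Every group was kept at 20°C on its bacteria since hatching, and none was heat shocked or given an ER stressor. lin-40 codes for a subunit of the NuRD complex, which remodels nucleosomes and deacetylates histones, and yth27 is a single point mutation recovered in a chemical mutagenesis screen. cco-1 codes for a subunit of cytochrome c oxidase, and its knockdown is a standard way to stress mitochondria in worms.

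Cells keep separate sets of chaperones for each compartment. Small heat shock proteins of the HSP-16 family and the inducible Hsp70 protein HSP-70 are produced in the cytosol when the factor HSF-1 is activated by heat or unfolded protein, and their genes are nearly silent in unstressed worms. HSP-1 is the constitutive cytosolic Hsp70, and HSP-3 and HSP-4 are the worm versions of BiP, the Hsp70 of the ER lumen, whose genes, hsp-4 above all, are induced by the ER unfolded protein response through IRE-1 and XBP-1. Mitochondria have their own pair, HSP-6 and HSP-60, which are induced by the mitochondrial unfolded protein response (UPRmt). The study used reporters driven by the promoters of hsp-16.2 and hsp-4 to ask whether NuRD is also needed for the cytosolic and ER responses. Those tests used lin-40 RNAi with heat shock or the ER stressor tunicamycin. The endogenous genes are read here in WT and lin-40(yth27) animals with and without cco-1 RNAi, in the absence of heat shock or an ER stressor.

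The hsp-16 genes lie in pairs of close neighbours on chromosome V. By the Ensembl annotation of WBcel235, hsp-16.2 (WBGene00002016, chromosome V, 1804334 to 1804957, minus strand) and hsp-16.41 (WBGene00002018, V, 1805178 to 1805875, plus strand) are divergent genes with 220 bases between them. The other 4 hsp-16 loci lie elsewhere on chromosome V as an inverted repeat of such pairs. It holds WBGene00002015 (9087293 to 9087782, minus) beside WBGene00002019 (9088131 to 9088617, plus), and WBGene00002020 (9089280 to 9089766, minus) beside WBGene00002017 (9090077 to 9090604, plus). RefSeq names these hsp-16.1, hsp-16.48, hsp-16.49 and hsp-16.11, while Ensembl calls both outer loci hsp-16.1 and both inner loci hsp-16.48. hsp-70 (WBGene00002026) lies on chromosome I at 9320325 to 9322519, hsp-1 (WBGene00002005) on IV at 17278959 to 17281330, hsp-3 (WBGene00002007) on X at 6089028 to 6092124 and hsp-4 (WBGene00002008) on II at 7350112 to 7352645. These coordinates are of the annotation used here, since the build behind the counts was not given in the sources.

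The copies could not be told apart by the counts. WBGene00002015 was listed at 0 in 12 of 12 libraries and WBGene00002017 held all reads of that pair, so the pair is written hsp-16.1/hsp-16.11. The 2 loci of the other pair had equal values in 12 of 12 libraries, fractions of a read included, so reads of hsp-16.48/hsp-16.49 had been shared out equally and each copy carries the same values and tests. How the reads were divided between near-identical copies is thus uncertain for these 4 loci. Summing the copies changed no call.

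Library totals lay between 18553449 and 22538076 counts. Levels are given as CPM, the count relative to the library's total, scaled by edgeR's TMM factors, and changes come from edgeR's quasi-likelihood test with Benjamini-Hochberg (BH) adjustment over all genes tested, with a call at an adjusted p under 0.05. The knocked-down gene, listed in the annotation as cox-5B, was at 177 to 257 CPM in lin-40 cco-1 animals and 409 to 425 CPM in lin-40 EV animals, and at 143 to 193 CPM in WT cco-1 animals and 474 to 517 CPM in WT EV animals (edgeR adjusted p = 0.0187 in lin-40(yth27) and 0.000376 in WT). Markers of intestine, muscle, hypodermis, neurons, germline and sperm were above 0 in each library, as whole worms should have. In such bulk RNA, fewer cells of a type and less RNA per cell cannot be told apart. The study describes its samples as biological replicates, and nothing further says which cultures they came from.

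The small heat shock genes did not separate the 4 groups, and libraries of the same group lay far apart. hsp-16.1/hsp-16.11, which codes for a small cytosolic chaperone that holds unfolded proteins in a soluble state, was at 43.03, 92.9 and 97.7 CPM in lin-40 cco-1 animals and at 78.4, 21.6 and 28.0 CPM in lin-40 EV animals (replicates 1, 2 and 3, here and below). It was at 82.1, 161 and 77.5 CPM in WT cco-1 animals and at 524, 23.2 and 443 CPM in WT EV animals. WT EV replicates 1 and 3 were thus 22.6-fold and 19.1-fold above WT EV replicate 2, which was among the lowest of the 12 libraries.

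hsp-16.2, whose promoter is the common reporter of the heat shock response, repeated this pattern at a lower level. It had 4.41, 10.8 and 11.4 CPM in lin-40 cco-1 animals, against 7.80, 1.13 and 2.50 CPM in lin-40 EV animals. In WT it had 16.202, 32.5 and 15.9 CPM on cco-1 RNAi, against 104.1, 3.19 and 88.3 CPM on EV. The 3 lin-40 cco-1 libraries were all below the 3 WT cco-1 libraries, whereas on EV the genotypes overlapped because WT EV replicate 2 was low. The lowest library rested on 27 reads of this gene.

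hsp-16.41, the divergent partner of hsp-16.2, had the widest gap within a group. It had 4.32, 17.3 and 20.5 CPM in lin-40 cco-1 animals, against 16.9, 3.31 and 5.42 CPM in lin-40 EV animals. WT animals had 16.8, 33.7 and 16.6 CPM on cco-1 RNAi, against 134, 2.78 and 121 CPM on EV. WT EV replicates 1 and 3 stood 48.1-fold and 43.7-fold above WT EV replicate 2, the lowest library of all for this gene.

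Each copy of hsp-16.48/hsp-16.49, which encode a further small heat shock protein of the family, had 7.01, 22.5 and 29.5 CPM in lin-40 cco-1 animals and 22.6, 6.08 and 7.46 CPM in lin-40 EV animals. In WT each copy had 14.5, 26.9 and 14.3 CPM on cco-1 RNAi, against 99.4, 6.20 and 94.9 CPM on EV. Here the highest library outside WT EV was lin-40(yth27) cco-1 replicate 3, whereas for the other small heat shock genes it was WT cco-1 replicate 2.

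hsp-70, the strongly heat-inducible cytosolic Hsp70, was low in most libraries. It had 5.16, 8.06 and 7.73 CPM in lin-40 cco-1 animals, against 15.1, 5.03 and 7.32 CPM in lin-40 EV animals. In WT it had 8.39, 40.4 and 8.94 CPM on cco-1 RNAi, against 105, 7.64 and 103 CPM on EV. Besides WT EV replicates 1 and 3, WT cco-1 replicate 2 was high for hsp-70. The lin-40 cco-1 libraries were all below the WT cco-1 libraries, by a narrow margin.

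**Figure D1:**
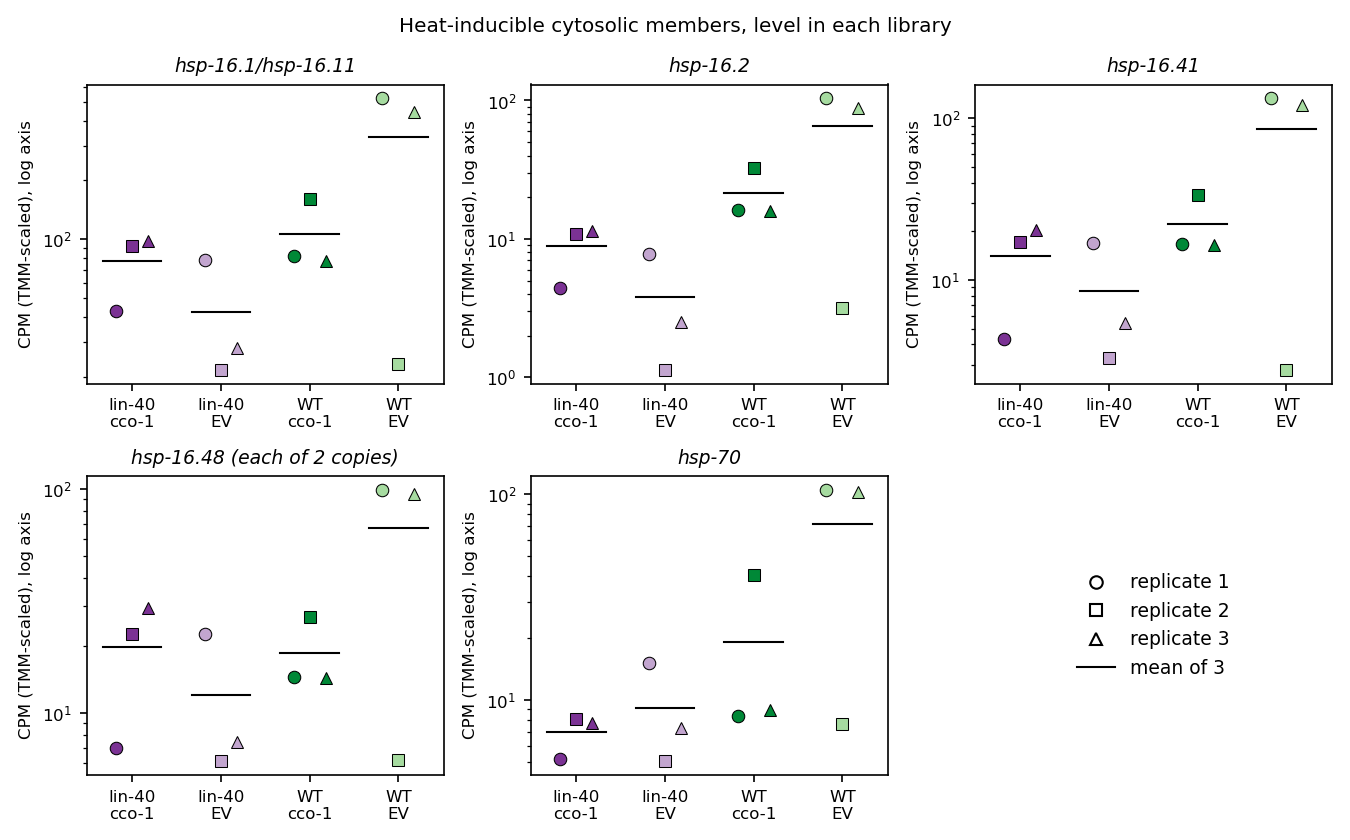
Level of each heat-inducible gene (CPM scaled by TMM, logarithmic axis) in the 12 libraries, by group, with the replicate number given by the symbol and the mean of 3 by a bar. WT EV replicates 1 and 3 lie above the other 10 libraries in every panel, while WT EV replicate 2 is near the low end, for hsp-16.41 at 2.78 CPM against 134 and 121 CPM.

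The genes that do not need heat to be expressed differed far less. hsp-1, the constitutive cytosolic Hsp70, had 2347, 3274 and 3699 CPM in lin-40 cco-1 animals, against 3265, 2754 and 2712 CPM in lin-40 EV animals. WT animals had 2676, 2774 and 2616 CPM on cco-1 RNAi, against 4582, 2636 and 3678 CPM on EV. The WT cco-1 libraries had a coefficient of variation of 2.97%, the smallest of any of the 8 genes in any group.

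hsp-3, the more abundant BiP gene, had 1580, 2323 and 2470 CPM in lin-40 cco-1 animals, against 2481, 2058 and 1936 CPM in lin-40 EV animals. In WT it had 2275, 1412 and 1860 CPM on cco-1 RNAi, against 3474, 1906 and 2551 CPM on EV. All groups overlapped, and WT EV replicate 1 was the highest library.

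hsp-4, the BiP gene that reports ER stress, had 204, 197 and 173 CPM in lin-40 cco-1 animals, below the 275, 245 and 251 CPM of lin-40 EV animals in all 3 libraries. WT animals had 222, 295 and 266 CPM on cco-1 RNAi, against 528, 249 and 441 CPM on EV. The lin-40 cco-1 libraries were also all below the WT cco-1 libraries. WT EV replicates 1 and 3 were 2.12-fold and 1.77-fold above WT EV replicate 2, a smaller gap in the same libraries.

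**Figure D2:**
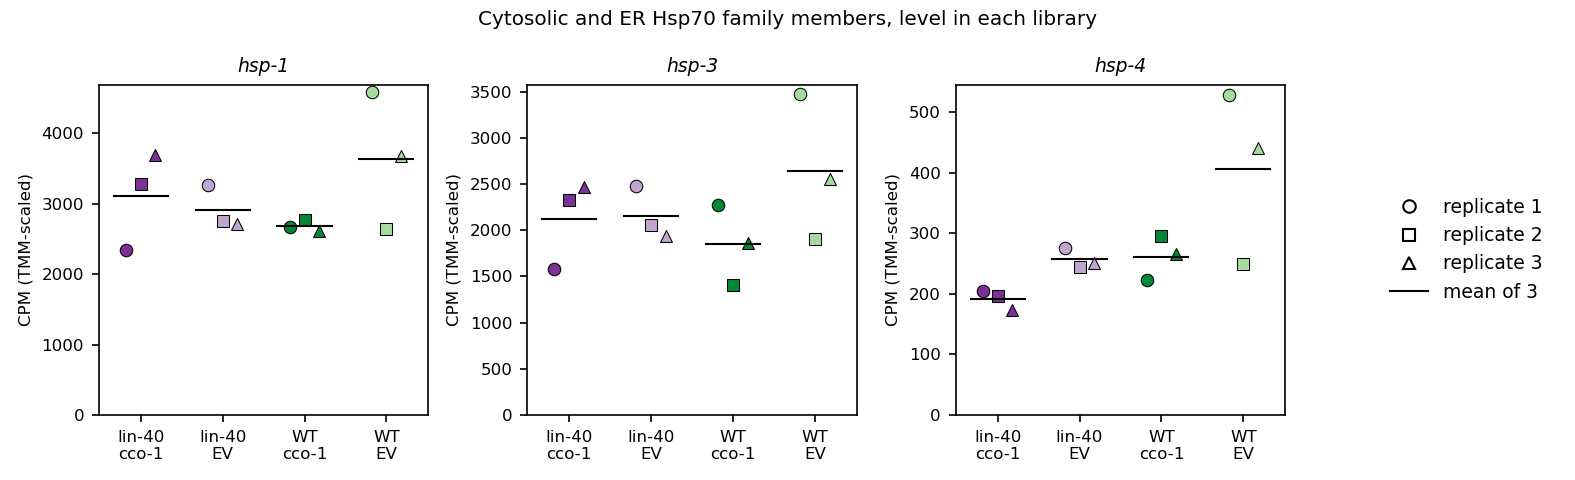
Level of hsp-1, hsp-3 and hsp-4 (CPM scaled by TMM, linear axis from 0) in the 12 libraries, by group, with the replicate number given by the symbol and the mean of 3 by a bar. hsp-4 lies at 173 to 204 CPM in lin-40 cco-1 animals and at 528 and 441 CPM in WT EV replicates 1 and 3.

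Per length of transcript the order of the genes was stable at its top. As TPM, computed from the counts and the Ensembl exon lengths (counts per exon length, set to the same sum in each library), hsp-1 averaged 1518 ± 164 in lin-40 cco-1 animals, 1683 ± 171 in lin-40 EV animals, 1559 ± 114 in WT cco-1 animals and 1891 ± 434 in WT EV animals (SD, n = 3). hsp-3 followed with means of 808, 971, 826 and 1069 in the same groups. hsp-70 was the lowest of the expressed loci in each group, with 3.46 ± 0.658 in lin-40 cco-1 animals, 5.34 ± 3.06 in lin-40 EV animals, 11.5 ± 11.4 in WT cco-1 animals and 37.4 ± 28.8 in WT EV animals (SD, n = 3). The middle of the order depended on the group: hsp-4 and hsp-16.1/hsp-16.11 had means of 90.3 and 163 in lin-40 cco-1 animals, but 138 and 107 in lin-40 EV animals, where hsp-16.1/hsp-16.11 had an SD of 77.7.

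On EV the heat-inducible genes were among the most variable genes within a group. In WT EV animals their coefficient of variation was between 77.4% and 84.1%, above that of 96.1% to 97.2% of all genes, whose median was 18.7%. In lin-40 EV animals it lay between 57.8% and 92.4%, above 96.9% to 99.3% of all genes, whose median was 13.2%, and lin-40(yth27) EV replicate 1 was the high library there. On cco-1 RNAi it was 38.9% to 61.0% in lin-40(yth27) and 38.8% to 44.1% in WT for the hsp-16 genes. hsp-70 had 22.8% in lin-40 cco-1 animals but 95.3% in WT cco-1 animals, above its 77.4% in WT EV animals. hsp-1, hsp-3 and hsp-4 had 26.8%, 29.8% and 35.1% in WT EV animals.

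In WT, cco-1 RNAi against EV called none of the 8 genes, in a comparison in which 6.25% of all genes tested passed. All 8 had a negative log2 fold change, with a median of −1.61 against 0.06 over all genes tested. For hsp-70 it was −1.90 (95% interval −3.71 to −0.09, edgeR adjusted p = 0.217) and for hsp-4 −0.64 (−1.12 to −0.15, edgeR adjusted p = 0.121). 3 of the 8, hsp-16.48/hsp-16.49, hsp-70 and hsp-4, had an unadjusted p under 0.05 in edgeR, as 20.8% of all genes had, and DESeq2 called 0 of 8 (9.79% of all genes). No gene of the 8 had all 3 WT cco-1 libraries below all 3 WT EV libraries, as 13.3% of all genes had, or above them. hsp-3, at −0.52 (edgeR adjusted p = 0.274), was called in a fit with the replicate number of the short sample names as a block (−0.50, adjusted p = 0.0327, where 8.62% of all genes were called lower). It was not called with the block by title number (−0.50, edgeR adjusted p = 0.150). Both numbers pair the WT libraries alike, and these blocks differ only in the lin-40(yth27) libraries. Within pairs of the same title number, the WT cco-1 library was the lower one in 3 of 3 pairs for hsp-3, as for 24.7% of all genes, and in 2 of 3 for the other 7.

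In lin-40(yth27), cco-1 RNAi against EV likewise called none of the 8, where 1.16% of all genes passed, and none had an unadjusted p under 0.05, as 11.9% of all genes had. DESeq2 called 0 of 8 (2.66% of all genes). The small heat shock genes had positive values, of which that of hsp-16.2 was the largest at 1.24 (95% interval −0.89 to 3.36, edgeR adjusted p = 0.684). hsp-4 had −0.43 (−0.91 to 0.06, edgeR adjusted p = 0.493), with 3 of 3 libraries lower, as were 9.71% of all genes in this comparison. For hsp-1 and hsp-3 the intervals were −0.37 to 0.56 and −0.57 to 0.53.

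The difference between these 2 responses was tested as an interaction, in which 0% of all genes passed. It was positive for 8 of the 8 genes, and the intervals were wide: 2.83 for hsp-16.2 (−0.08 to 5.74, edgeR adjusted p = 0.443), 1.51 for hsp-70 (−1.06 to 4.08, adjusted p = 0.596) and 0.21 for hsp-4 (−0.47 to 0.90, adjusted p = 0.784). 0 of 8 had an unadjusted p under 0.05, as 11.4% of all genes had, and DESeq2 called 0 of 8 (0.39% of all genes). The value for hsp-4 was −0.09 when counts were scaled by library totals and −0.02 without WT EV replicate 1.

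On EV, lin-40(yth27) against WT gave the largest values, again with none of the 8 called, where 0.377% of all genes passed. hsp-16.2 had −4.11 (95% interval −6.37 to −1.86, edgeR adjusted p = 0.115), hsp-16.41 −3.34 (adjusted p = 0.194), hsp-70 −2.98 (adjusted p = 0.166) and hsp-16.1/hsp-16.11 −2.95 (adjusted p = 0.169). 6 of the 8 had an unadjusted p under 0.05 and a lower value, as 7.43% of all genes had. DESeq2, which called 3.07% of all genes here and 1.98% lower, called 3 of the 8 lower: hsp-16.2, hsp-16.1/hsp-16.11 and hsp-70. The groups overlapped for 8 of the 8 genes, when 13.1% of all genes had every lin-40 EV library below every WT EV library: WT EV replicate 2 lay within or below the range of the lin-40 EV libraries, and WT EV replicates 1 and 3 lay above it. Within the 3 pairs of EV libraries with the same title number, the lin-40 EV library was the lower one in 3 of 3 pairs for hsp-16.1/hsp-16.11, hsp-16.2, hsp-16.48/hsp-16.49, hsp-70 and hsp-4, as for 22.8% of all genes, and in 2 of 3 for hsp-16.41, hsp-1 and hsp-3. With the title number as a block, hsp-16.2 had −3.66 (edgeR adjusted p = 0.170) and none of the 8 was called. The short sample names pair the libraries otherwise, with lin-40(yth27) EV replicate 1 beside WT EV replicate 2. In that pair each of the 8 genes was higher in the mutant, with 7.80 against 3.19 CPM for hsp-16.2 and 15.1 against 7.64 CPM for hsp-70. In the pair of replicates 3, the same by both numbers, each was lower.

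On cco-1 RNAi, lin-40(yth27) against WT called none of the 8, where 0.626% of all genes passed, and none had an unadjusted p under 0.05 (15.6% of all genes) or a call by DESeq2 (2.7% of all genes). hsp-16.2 (−1.28, edgeR adjusted p = 0.526), hsp-70 (−1.47, adjusted p = 0.430) and hsp-4 (−0.45, adjusted p = 0.362) had 3 of 3 lin-40 cco-1 libraries below all WT cco-1 libraries, which held for 7.34% of all genes. hsp-1, hsp-3 and hsp-16.48/hsp-16.49 had 0.21, 0.20 and 0.08, the last of which was −0.17 when scaled by library totals.

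The calls in both comparisons against WT EV animals depended on which of its libraries were kept. Leaving out any single library kept the values of the 8 genes negative in both. Without WT EV replicate 2, 4 of the 8 genes were called lower on cco-1 RNAi in WT (hsp-16.1/hsp-16.11, hsp-16.48/hsp-16.49, hsp-70 and hsp-4), where 3.65% of all genes were. Between the genotypes on EV, 5 of the 8 were then called lower in lin-40(yth27) (hsp-16.1/hsp-16.11, hsp-16.2, hsp-16.41, hsp-70 and hsp-4), where 0.438% of all genes were. Leaving out WT EV replicates 1 and 3 together was chosen after the data were seen. It keeps only the low WT EV library, which is assumed to vary like the other groups, so the turn of sign follows from the choice and is a description. In WT, cco-1 RNAi against EV then gave 2.20 for hsp-16.1/hsp-16.11, 2.75 for hsp-16.2, 3.01 for hsp-16.41, and 0.07 for hsp-4. On EV, lin-40(yth27) against WT gave 0.24 for hsp-16.2 and 0.26 for hsp-70, and none of the 8 was called in either comparison. The interaction became negative for the 5 heat-inducible genes, between −2.29 for hsp-16.41 and −0.87 for hsp-16.48/hsp-16.49, and for hsp-4 (−0.49).

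**Figure D3:**
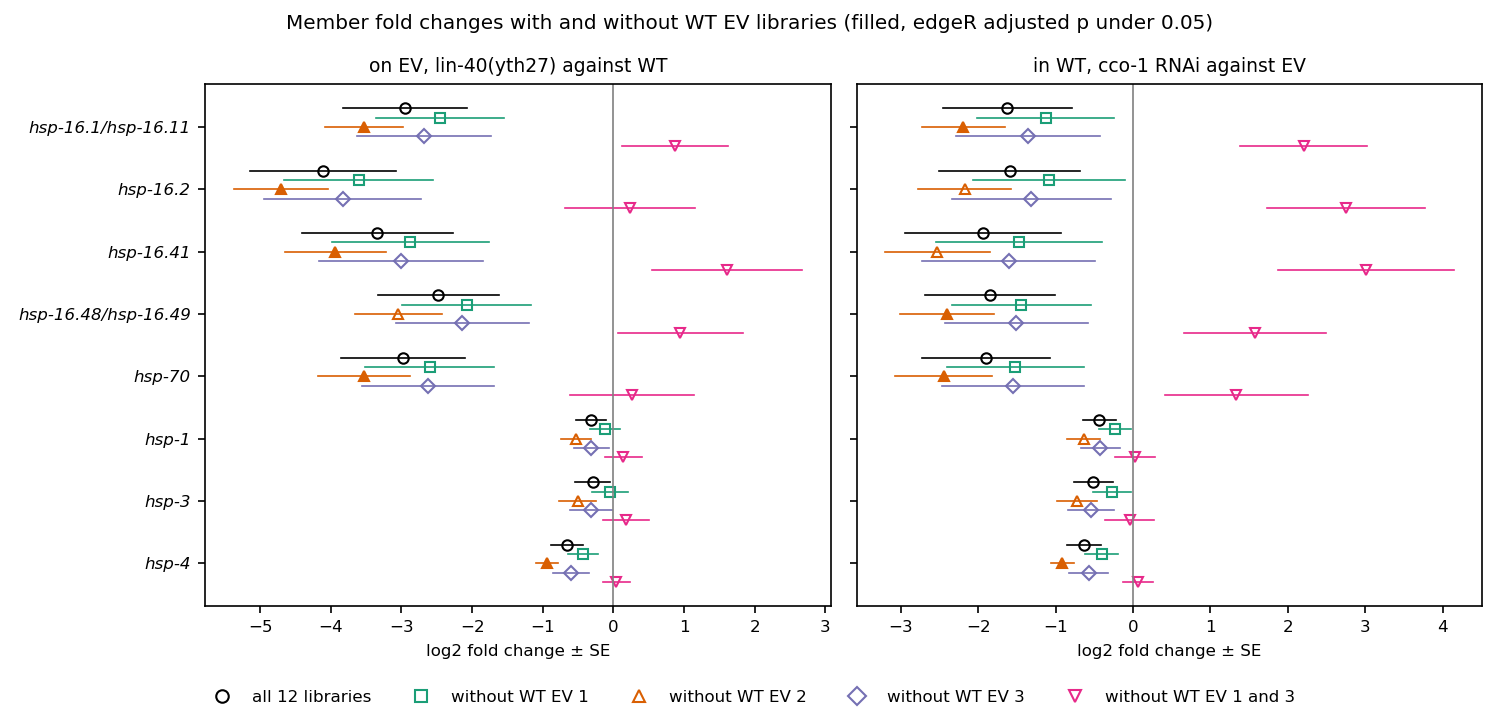
Log2 fold change (± SE) of each gene for lin-40(yth27) against WT on EV (left) and for cco-1 RNAi against EV in WT (right), with all 12 libraries and without 1 or 2 WT EV libraries. Filled symbols have an edgeR adjusted p under 0.05, which occurred only without WT EV replicate 2, and the values without both replicates 1 and 3 lie on the other side of 0 for the 5 heat-inducible genes.

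What set WT EV replicates 1 and 3 apart was narrow at its top. Among the 14867 genes tested, 8 loci were at least 2-fold above the highest of the other 10 libraries in both. These were the 5 expressed hsp-16 loci, hsp-70, and F44E5.4 and F44E5.5, which code for further Hsp70 proteins and are similar enough that their counts are partly fractions of reads. 933 genes were above, and 459 below, the other 10 libraries in both, 30 of those below by at least 2-fold, and the 933 were 6.28% of the genes tested. F44E5.5 had 1407, 81.5 and 1452 CPM in WT EV replicates 1, 2 and 3 and at most 359 CPM elsewhere, and F44E5.4 had 575, 25.5 and 655 CPM there. Below these 8 came genes such as unc-23, a BAG-domain cochaperone, at 1.85-fold, hsp-110, an Hsp70 nucleotide exchange factor, at 1.69-fold and dnj-13, a J-domain partner of Hsp70, at 1.53-fold above the highest other library, together with the apical matrix genes noah-1, noah-2, lpr-3 and lpr-4 at 1.54-fold to 1.75-fold. As these libraries were picked out by the same values, the list is a description, and the part of the matrix genes in the heat shock values was not tested.

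Marker levels moved among the WT EV libraries too. The 5 yolk protein genes summed to 610, 3736 and 2718 CPM in WT EV replicates 1, 2 and 3, the 5 sperm genes to 43.8, 228 and 146 CPM, and the 4 hypodermis genes to 1115, 1004 and 1386 CPM. On cco-1 RNAi in WT the hypodermis sum was 565 to 800 CPM, and in lin-40(yth27) it was 730 to 859 CPM on cco-1 RNAi and 801 to 864 CPM on EV. The 4 hypodermis genes did not move together. dpy-7 and bli-1 were highest in the WT EV libraries, whereas rol-6 was highest in lin-40(yth27) cco-1 replicate 2 (493 CPM). lin-26 was lowest in WT EV replicate 3 (32.6 CPM). The yolk sum was 597 to 2189 CPM in lin-40 cco-1 animals, 5991 to 8404 CPM in lin-40 EV animals and 94.2 to 3461 CPM in WT cco-1 animals. The sperm sum was 138 to 207 CPM in lin-40 cco-1 animals and 139 to 219 CPM in lin-40 EV animals. It was 44.4 to 392 CPM in WT cco-1 animals, lowest in replicate 1. In WT cco-1 animals, 1 of the 4 hypodermis markers, the cuticle collagen gene dpy-7 (log2 fold change −1.17, edgeR adjusted p = 0.00452), and 1 of the 5 germline markers, the helicase gene glh-1 (−0.53, edgeR adjusted p = 0.0296), were called lower, as were 4.08% of all genes (calls lost in 2 and 10 of 24 alternatives), and edgeR called no other marker in any comparison. The part of these shifts in the heat shock values was not tested.

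**Figure D4:**
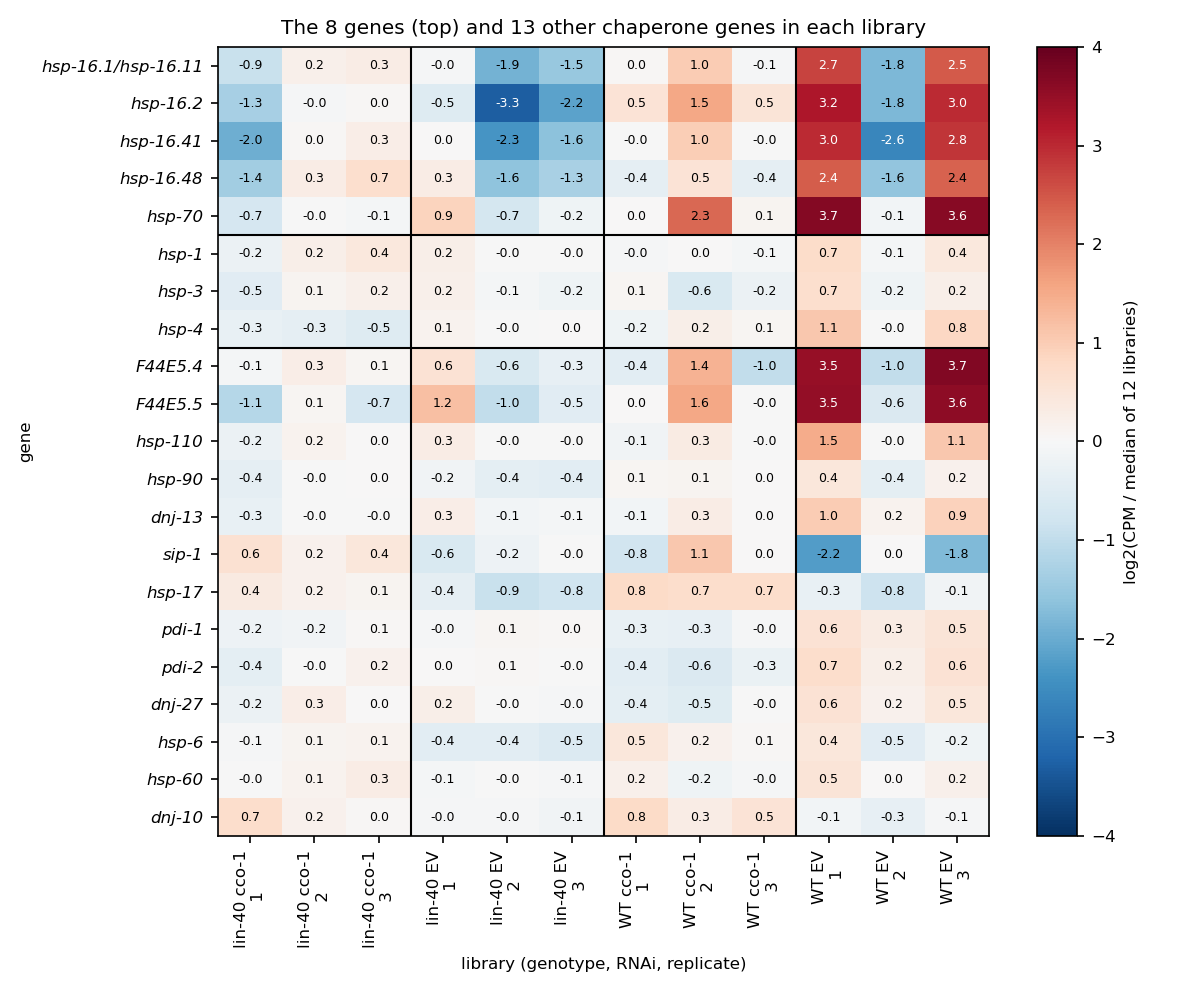
Log2 of the level in each library over the median of the 12 libraries, for the 8 genes described (above the second line, the 5 heat-inducible genes uppermost) and for 13 other chaperone genes. WT EV replicates 1 and 3 are raised for the hsp-16 genes, hsp-70, F44E5.4 and F44E5.5 and lowered for sip-1. WT EV replicate 2 does not show this pattern.

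The hsp-16 genes and hsp-70 tracked each other across the 12 libraries. Pearson correlations of log2 CPM, given as a description over libraries that share the 2 high ones, were 0.92 to 0.99 between the hsp-16 genes and 0.88 to 0.90 between these and hsp-70. In the 10 libraries without WT EV replicates 1 and 3 they were 0.82 to 0.97 and 0.64 to 0.69. hsp-1 had 0.86 over 12 and 0.71 over 10 libraries with hsp-3, and 0.87 and 0.73 with hsp-16.48/hsp-16.49. With hsp-16.41, hsp-16.1/hsp-16.11 and hsp-16.2 it had 0.78, 0.76 and 0.66 over 12 libraries, but 0.52, 0.44 and 0.24 over 10. With hsp-70 it had 0.69 and 0.18. hsp-4 had 0.89 with hsp-70 over 12 libraries but 0.58 over 10, and with hsp-3, the other BiP gene, 0.45 and −0.44.

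Among genes outside the 8, the pattern most like that of hsp-70 was that of F44E5.5 (r = 0.98 over 12 libraries, 0.93 over 10). hsp-16.2 was most like hsp-90, the cytosolic Hsp90 chaperone (0.94 and 0.94), hsp-16.1/hsp-16.11 most like Y43F8B.2 (0.95 and 0.95), and hsp-16.41 and hsp-16.48/hsp-16.49 most like nurf-1, a subunit of a nucleosome remodelling factor (0.94 and 0.86, and 0.96 and 0.90). hsp-1 was most like copb-1, a coatomer subunit (0.96 and 0.91), with cct-8 of the cytosolic chaperonin second, hsp-3 most like aqp-8 (0.97 and 0.95), followed by cas-1 and the protein disulphide isomerase gene pdi-6, and hsp-4 most like rme-1 (0.95 and 0.85).

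Relative to hsp-16.1/hsp-16.11, hsp-16.2 had fewer reads in each lin-40(yth27) library than in any WT library. Reads of hsp-16.2 were 10.2%, 11.7% and 11.7% of those of hsp-16.1/hsp-16.11 in lin-40 cco-1 animals and 9.96%, 5.24% and 8.93% in lin-40 EV animals. In WT they were 19.7%, 20.2% and 20.5% on cco-1 RNAi and 19.9%, 13.8% and 19.9% on EV. At close levels of hsp-16.1/hsp-16.11, lin-40(yth27) EV replicate 2 had 27 reads of hsp-16.2 per 515 and WT EV replicate 2 had 69 per 501.

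This ratio was 1 of 10 between the heat-inducible genes and was picked out after all 10 were seen, so it is given as a description with no test. Its mean in lin-40(yth27) minus that in WT was −1.02 on the log2 scale, and between −1.11 and −0.84 when each library was left out in turn or WT EV replicates 1 and 3 together. It was the only one of the 10 in which the ranges of the genotypes did not overlap. The ratio of hsp-16.48/hsp-16.49 to hsp-16.2, which shares hsp-16.2 with the first, was 318% to 1074% in lin-40(yth27) and 165% to 390% in WT, ranges that overlapped. That of hsp-16.41, the neighbour of hsp-16.2, to hsp-16.1/hsp-16.11 differed by −0.27. The sequence of these loci in the lin-40(yth27) strain was not examined.

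**Figure D5:**
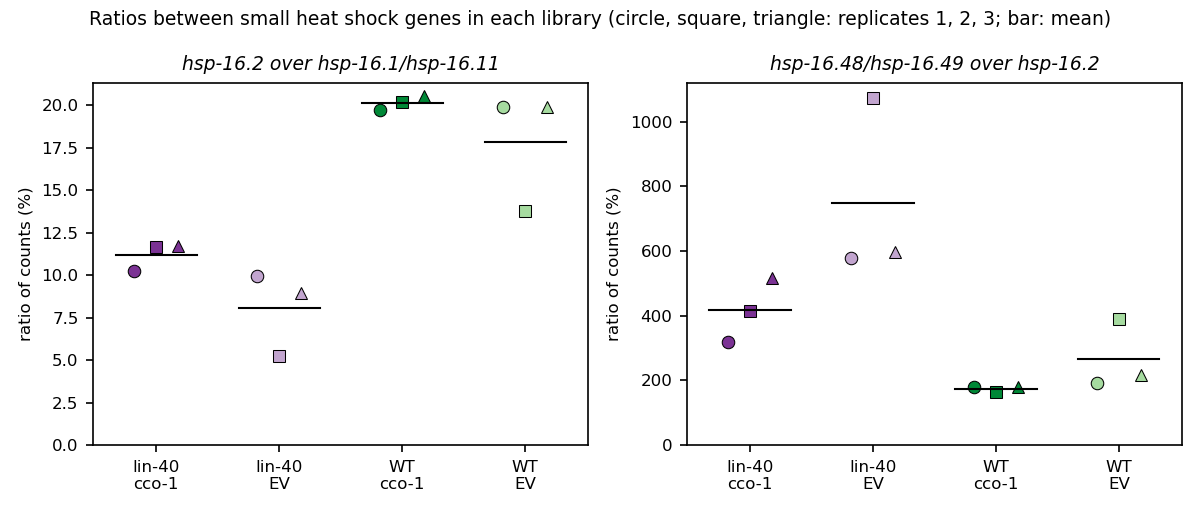
Reads of hsp-16.2 in percent of those of hsp-16.1/hsp-16.11 (left), and reads of both hsp-16.48/hsp-16.49 copies in percent of those of hsp-16.2 (right), in the 12 libraries by group, with bars at the mean of 3. On the left the lin-40(yth27) libraries lie between 5.24% and 11.7% and the WT libraries between 13.8% and 20.5%.

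Of 10 other small heat shock genes 7 were tested, and edgeR and DESeq2 each called 1 higher on cco-1 RNAi in each genotype, where edgeR called 2.17% of all genes higher in WT and 0.827% in the mutant, and DESeq2 3.48% and 1.82%. This gene in edgeR was hsp-17, which had 139, 133 and 132 CPM on cco-1 RNAi in WT, against 66.3, 45.9 and 74.0 CPM on EV (log2 fold change 1.11 ± 0.18 SE, edgeR adjusted p = 0.00576). It rose in lin-40(yth27) as well, with 104.3, 90.1 and 87.7 CPM on cco-1 RNAi, against 63.3, 43.4 and 46.1 CPM on EV (0.89 ± 0.18 SE, edgeR adjusted p = 0.0463, a call lost in 12 of 24 alternatives). In WT the call held in 24 of 24 alternatives, and hsp-17 was not raised in WT EV replicates 1 and 3 beyond the other libraries. sip-1, another small heat shock gene, ran opposite to the hsp-16 genes in WT EV animals, with 34.9, 166 and 48.1 CPM.

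Of 20 cytosolic chaperones and cochaperones, none was called in any comparison by edgeR, although 11 had a lower and 1 a higher value at an unadjusted p under 0.05 in WT cco-1 animals, as 11.7% and 9.11% of all genes had. In lin-40(yth27) the knockdown gave 0 such values, the interaction 5 higher ones (6.84% of all genes), and the genotypes 7 lower ones on EV (7.43%) and 1 on cco-1 RNAi (5.65%). DESeq2 called 1 lower on cco-1 RNAi in WT (6.31% of all genes) and 1 lower in lin-40 EV animals (1.98%). The median log2 fold change of the 20 was −0.36 in WT, against 0.06 over all genes. For 11 of the 20, WT EV replicates 1 and 3 were above the other 10 libraries, as for 6.28% of all genes. hsf-1, the heat shock factor, and its regulators hsb-1, ddl-1 and ddl-2 were not called by edgeR or DESeq2, and none of these 4 had an unadjusted p under 0.05 in any comparison. The hsf-1 family member hsf-2 was on the list but matched no symbol.

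Among genes that work beside hsp-3 and hsp-4 in the ER, 3 fell in WT. Of 15 genes for ER folding and degradation, these fell on cco-1 RNAi in WT, where 4.08% of all genes did, and none rose: pdi-2, a protein disulphide isomerase, with 2471, 2206 and 2775 CPM on cco-1 RNAi, against 5423, 3940 and 5000 CPM on EV (−0.95 ± 0.18 SE, edgeR adjusted p = 0.0101), its relative pdi-1 (−0.69 ± 0.13 SE, adjusted p = 0.00953) and the ER J-domain protein gene dnj-27 (−0.69 ± 0.17 SE, adjusted p = 0.0374). For each of the 3, all cco-1 RNAi libraries were below all EV libraries, WT EV replicate 2 included, as for 13.3% of all genes. The calls were lost in 4, 3 and 11 of 24 alternatives for pdi-2, pdi-1 and dnj-27, and without WT EV replicates 1 and 3 none of the 15 was called. Those libraries were above the other 10 for 9 of the 15, as for 6.28% of all genes. DESeq2 called 4 of the 15 lower in WT (6.31% of all genes) and 1 lower in lin-40 EV animals (1.98%). In lin-40(yth27) none of the 15 was called by edgeR or DESeq2, 1 having an unadjusted p under 0.05 (11.9% of all genes), and pdi-2 had −0.09 (edgeR adjusted p = 0.895). All 15 had a negative log2 fold change there (median −0.14, against −0.03 over all genes). In WT 13 of the 15 did (median −0.41, against 0.06). The interaction was 0.86 for pdi-2, 0.58 for pdi-1 (edgeR adjusted p = 0.394 for both) and 0.66 for dnj-27 (adjusted p = 0.410). With the block by short-name number it passed for pdi-2 (1.01, edgeR adjusted p = 0.0337) and dnj-27 (0.74, adjusted p = 0.0420), but in no alternative for pdi-1. In that block the response of lin-40(yth27) rested on the pairs numbered 2 and 4 only. Of the 5 ER stress sensors and factors, none was called by edgeR in any comparison. Between 0 and 2 had an unadjusted p under 0.05 (11.4% to 20.8% of all genes in the comparisons with any). DESeq2 called 1 lower in lin-40 cco-1 than in WT cco-1 animals (0.841% of all genes).

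The mitochondrial chaperones, the readout of the UPRmt, are given beside these genes for scale. hsp-6, the mitochondrial Hsp70, had 1019, 1143 and 1166 CPM in lin-40 cco-1 animals, against 793, 795 and 724 CPM in lin-40 EV animals (log2 fold change 0.53, edgeR adjusted p = 0.324). In WT it had 1461, 1194 and 1097 CPM on cco-1 RNAi, against 1436, 773 and 942 CPM on EV (0.25, edgeR adjusted p = 0.530). WT EV replicate 1 was high for hsp-6 too, and without WT EV replicates 1 and 3 the value in WT was 0.69. dnj-10, a mitochondrial J-domain protein gene, rose in WT (0.71 ± 0.18 SE, edgeR adjusted p = 0.0393), with 51.1, 36.2 and 43.04 CPM on cco-1 RNAi, against 27.8, 23.6 and 28.5 CPM on EV. That call was lost in 13 of 24 alternatives. hsp-60 and hsp-10, the mitochondrial chaperonin genes, were not called in any of the 5 comparisons with all 12 libraries. The interaction for hsp-10 passed with the block by short-name number (0.70, edgeR adjusted p = 0.0457), in which the lin-40(yth27) response rested on the pairs numbered 2 and 4.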

How the data were processed

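RNA was selected with oligo(dT) from whole L4 animals and sequenced from both ends. The authors aligned reads with TopHat and quantified genes with RSEM. The deposited table was read as unnormalized expected counts, because its values are mostly whole and its column totals differ. The unit is not stated with it, and the build, annotation and DEG tool behind it were not given in the sources used here. Values were rounded before any test, and 0 columns belonged to other samples.

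Genes were filtered by edgeR's filterByExpr (minimum count 10), scaled by TMM and fitted by edgeR 4.0.16 in R 4.3.3 on all 12 libraries, with DESeq2 1.42.0 as an alternative and limma 3.58.1 loaded by edgeR. Ratios and plots used Python 3.11.15 and matplotlib 3.10.9. Log2 CPM used a prior count of 2. The SE of a fold change was derived from its value and the F statistic of the quasi-likelihood test, and the 95% interval from that SE. An interval thus leaves out 0 only where the unadjusted p is under 0.05. Symbols and exon lengths came from the Ensembl annotation, in which 46603 of 46778 WormBase identifiers were found. The fit was first tested on simulated data.

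The genes described and the lists of other genes were chosen with earlier results of these data known. Named were the 8 genes, the mitochondrial chaperones, any gene of another list past the threshold, and the non-member genes most correlated with each. Other genes named (F44E5.4, F44E5.5, sip-1 and those of the WT EV libraries) and the ratios were chosen after their values were seen.

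Same-numbered WT libraries by title deviated together (r across genes 0.723, 0.588 and 0.288 for replicates 1, 2 and 3), as did EV libraries of both genotypes (0.467, 0.278 and 0.169). In lin-40(yth27) they did not (−0.324, −0.192 and −0.113). The short sample names number the lin-40 EV libraries 2, 3 and 4 and those of each other group 1, 2 and 4. Within WT both numbers thus give the same pairs, and the blocks for the cco-1 RNAi responses differ only in lin-40(yth27). By these numbers, pairs 2 and 4 had r of 0.290 and −0.113 in lin-40(yth27), and −0.426 and 0.169 between the genotypes on EV. With the short-name block, lin-40(yth27) cco-1 replicate 1 and lin-40(yth27) EV replicate 2 had no partner. The response of lin-40(yth27) there rested on pairs 2 and 4.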

Additional observations from a re-analysis of the deposited data

How the results depend on the processing

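Of 952 values of the 8 genes under 24 alternatives, 939 kept their side of the threshold, 13 passed it where the fit of all 12 libraries did not, and 0 reversed past it. For cco-1 RNAi against EV in WT the number called was 1 (hsp-3) with the replicate block by short-name number, and between 0 and 4 when each library was left out in turn, 4 without WT EV replicate 2. For lin-40(yth27) against WT on EV it was 3 with DESeq2 and between 0 and 5 when each library was left out, 5 without WT EV replicate 2. It was 0 in all other alternatives and comparisons, and the replicate block by title number changed no call of the 8 genes and gave 0 in each comparison. The sign differed, with no threshold passed, in 36 values, 21 of them without WT EV replicates 1 and 3. Scaling by library totals turned hsp-1 in lin-40(yth27) to −0.08. With 3 libraries a group, an interval of several log2 units for the hsp-16 genes limits what could be detected.

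Over all genes and all alternatives, the calls in WT were 929 (36 without WT EV replicates 1 and 3, to 2366 under the short-name block) and 1455 with DESeq2. In lin-40(yth27) they were 173 (26 without lin-40(yth27) EV replicate 3, to 395 with DESeq2). On EV the genotypes differed in 56 genes (1 under the short-name block, to 457 with DESeq2) and 9 with the block by title number, and on cco-1 RNAi in 93 (1 under the short-name block, to 402 with DESeq2) and 2 with that by title number. The interaction had 0 calls, 58 with DESeq2 and 1023 under the short-name block. With the block by title number, which pairs the WT libraries as the short names do, the calls in WT were 1249. Scaling by library totals moved the median over all genes, on the log2 scale, to 0.19 in WT, −0.18 in lin-40(yth27), 0.16 on EV, −0.16 on cco-1 RNAi and −0.31 in the interaction. Higher and lower calls were then 318 and 310 in WT (323 and 606 with TMM), 48 and 51 in lin-40(yth27) (123 and 50), 33 and 14 on EV (30 and 26), and 22 and 17 on cco-1 RNAi (74 and 19). The cause of these differences was not tested.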
